A study of Mus musculus with 30 samples.

Results

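The genes described here encode subunits of the receptors that dorsal root ganglion (DRG) neurons use to sense glutamate, GABA, glycine and acetylcholine, together with the serotonin type 3 channel. They were chosen by name: a protein-coding gene with a matching symbol was a member when at least 10 of the 30 libraries held 10 or more counts of it. Of 48795 genes in the table, 68 had a matching symbol and 44 of these met the count rule. The 44 genes comprised 4 of 4 AMPA, 2 of 2 delta, 5 of 5 kainate, 5 of 7 NMDA and 4 of 8 metabotropic glutamate genes, 11 of 19 GABA-A genes, 1 of 5 glycine genes, 10 of 16 nicotinic genes and 2 of 2 serotonin type 3 genes.

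The libraries came from primary cultures of neuron-enriched DRG of wild-type C57/Bl6 mice, and fell into 3 groups of 10. DN cultures had received A-Fos, a dominant negative Fos that pairs with Jun proteins and keeps the AP-1 transcription factor off DNA, in a PHP.S adeno-associated virus specific for sensory neurons. GFP cultures had received the GFP control and Untransduced cultures no virus. By their sample titles the libraries belonged to 3 culture sets of 3, 3 and 4 replicates. Replicates 1 to 3 are the plain set, replicates 4 to 6 the 7DIV set (their titles give 7 days in vitro), and replicates 7 to 10 the dated set. According to the design text, replicates were cultures of separate mice, each divided between the 3 conditions. The share of neurons that carried a transgene was not analysed here, and the animals' age is not given in the sources used here.

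Most of these receptors are ion channels assembled from several subunits, so the properties of a receptor follow from which subunits a cell makes. Glutamate-gated channels fall into AMPA, kainate, NMDA and delta families of tetramers, while GABA-A, glycine, nicotinic and serotonin type 3 channels are pentamers of a second superfamily. Metabotropic glutamate receptors act through G proteins instead. In DRG neurons many of these receptors sit on the central terminals in the spinal cord, where they change how much transmitter an afferent releases. GABA depolarises these neurons, because the transporter encoded by Slc12a2 keeps their chloride high.

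Gene counts summed to between 10.7 and 39.1 M per library (M, 1e+06 counts), with means of 30.7 M ± 4.45 for DN cultures, 31.6 M ± 3.47 for GFP cultures and 27.4 M ± 7.54 for Untransduced cultures (SD, n = 10 each). Untransduced replicate 4 stood apart. It had the lowest total, against 24.1 M for the next lowest library, and held 37657 CPM (counts scaled to 1e+06 per library) of the nuclear RNA Malat1, against 1875 to 8316 CPM in the other 29 libraries. For the genes named, calls of DN against GFP or Untransduced cultures over all sets that change without it are given both ways. Calls that change without it in the comparisons of GFP cultures between sets are not given by gene. The summed level of 15 markers of sensory neurons ran from 3233 to 5725 CPM in DN (median 4637), from 2544 to 4603 CPM in GFP (median 4233) and from 2871 to 4839 CPM in Untransduced cultures (median 3838), so sensory neuron transcripts were present in every library. DN exceeded GFP in 9 of 10 replicates in that sum. Individually, 11 of the 15 markers passed the test against GFP, 9 higher and 2 lower, with a median log2 fold change of 0.52. Among all genes tested 11.4% passed, 7.98% higher and 3.39% lower. Of the markers of other cells, 1 of 10 of satellite glia, 2 of 10 of Schwann cells, 0 of 7 of fibroblasts, 1 of 7 of macrophages and 1 of 8 of endothelium and pericytes passed, all of them lower in DN. In GFP cultures the summed lists had medians of 4169 CPM for fibroblasts, 2132 for Schwann cells and 1331 for satellite glia. For endothelium and pericytes the median was 734.9 CPM, and for macrophages 17.6. Transcripts of other cells were thus present as well. Sums over different lists do not give shares of cells, and the cells that receptor transcripts came from were not told apart. These are bulk libraries, in which more neurons and more RNA per neuron cannot be told apart, and the part of the neuron markers in the results below was not tested.

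The comparison of DN with GFP asks what blocking AP-1 changes beyond transduction. Of the 44 receptor genes, all of which passed the filter on low counts, 17 were called in DN against GFP (38.6%), 14 higher and 3 lower. Among all 18063 genes tested 11.4% were called, with 7.98% higher and 3.39% lower. A call is an adjusted p under 0.05 in edgeR's quasi-likelihood test with Benjamini-Hochberg adjustment over all genes tested. The median log2 fold change of the 44 genes was 0.13, beside -0.001 for all genes tested. By family, 4 nicotinic genes rose and 1 fell, 3 metabotropic glutamate genes rose, 2 kainate genes rose, 1 AMPA and 1 NMDA gene rose, and 3 GABA-A genes rose while 2 fell. No delta, glycine or serotonin type 3 gene was called. The plot of fold changes by family shows calls of 40 of the genes with their errors.

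**Figure D1:**
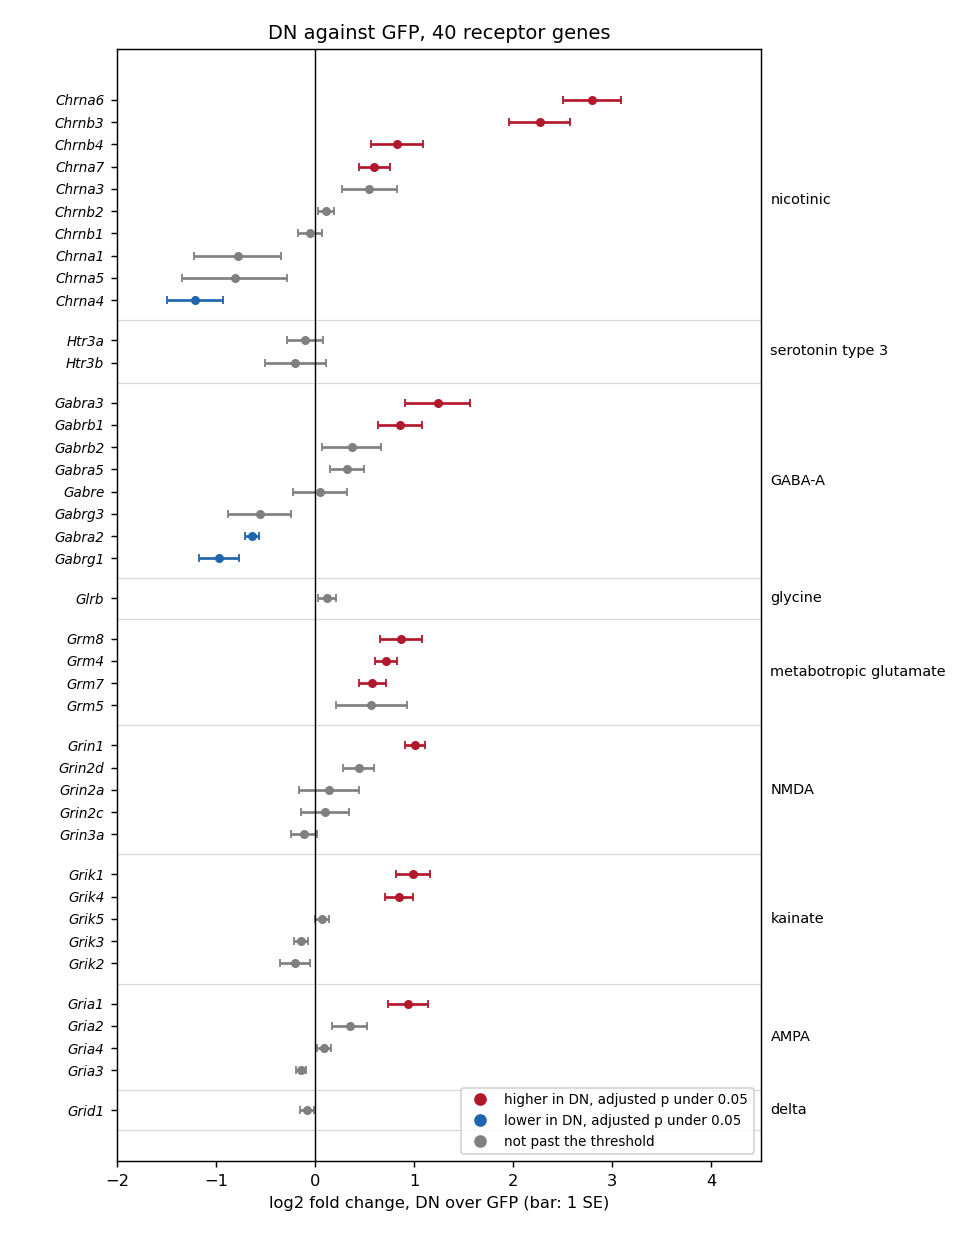
Log2 fold change of DN over GFP (horizontal axis) for 40 of the 44 receptor genes, grouped by family. Points are the fitted values and bars 1 SE, and colour marks genes higher, lower or not past the threshold. Chrna6 (2.80) and Chrnb3 (2.27) lie furthest to the right, and Chrna4 (-1.21) furthest to the left.

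Nicotinic receptors showed the 2 largest rises. Chrna6 encodes the alpha6 subunit, which in brain is found mainly in catecholaminergic neurons and assembles with beta2 and beta3. The gene (ENSMUSG00000031491) lies on GRCm38 chromosome 8, 27403212 to 27413944, minus strand. Its level ran from 6.00 to 21.9 CPM in DN (median 11.7), from 0.619 to 2.55 CPM in GFP (median 1.93) and from 0.702 to 2.76 CPM in Untransduced cultures (median 1.62). Every DN library lay above every GFP library, and above every Untransduced library. Chrna6 was the only one of the 44 genes whose DN and GFP libraries did not overlap (2.27% of the members, beside 0.847% of all genes tested). The mean was 12.3 CPM ± 5.09 in DN against 1.77 ± 0.647 in GFP (SD, n = 10 each), a 6.95-fold rise (log2 fold change 2.80, SE 0.29, adjusted p = 2.78e-07).

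Chrnb3 encodes beta3, an accessory subunit that does not bind acetylcholine by itself. The gene (ENSMUSG00000031492) is the neighbour of Chrna6, from 27368711 to 27399730 on the plus strand, so that the 2 genes converge with 3.5 kb between their ends. Levels were 1.59 to 7.27 CPM in DN (median 5.05), 0.0690 to 2.06 CPM in GFP (median 0.984) and 0.395 to 1.76 CPM in Untransduced cultures (median 0.741). DN was above GFP in 10 of 10 replicates, and 9 of 10 DN libraries lay above the highest GFP library. The rise was 4.81-fold (log2 fold change 2.27, SE 0.31, adjusted p = 9.68e-06).

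Chrna7, whose subunit forms receptors without a partner, averaged 13.4 CPM ± 2.78 in DN and 9.75 ± 5.52 in GFP and was higher in DN in 8 of 10 replicates (1.52-fold, adjusted p = 0.0143). Its libraries overlapped throughout, and the call was lost when replicate 1, 2 or 3 was left out (adjusted p = 0.0507, 0.0552 and 0.0572). Chrnb4, a subunit of the ganglionic receptor, averaged 1.80 CPM ± 1.02 in DN and 1.08 ± 0.729 in GFP (1.78-fold, adjusted p = 0.0375). That call was lost in 8 of the 10 fits without a replicate, where the adjusted p ran from 0.0241 to 0.119 over all 10. Chrna4, which with beta2 forms the main nicotinic receptor of brain, moved the other way. It ran from 0.122 to 1.32 CPM in DN (median 0.467), from 0.387 to 2.11 CPM in GFP (median 1.16) and from 0.413 to 2.08 CPM in Untransduced cultures (median 1.30). DN was lower than GFP in 9 of 10 replicates, with 4 DN libraries below the lowest GFP library, and the fall was 2.32-fold (log2 fold change -1.21, SE 0.28, adjusted p = 0.00445).

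The remaining nicotinic genes did not pass the test. Chrnb2, whose subunit can pair with alpha4 or alpha6, had 38.9 CPM ± 6.90 in DN and 36.7 ± 10.1 in GFP (log2 fold change 0.11, adjusted p = 0.484). Part of its exons (1365 of 8380 bases) overlaps Adar on the other strand, and the strandedness of the counting is not given in the sources used here. Chrna3, the partner of beta4 in ganglia, averaged 3.26 CPM ± 2.12 in DN and 2.44 ± 1.97 in GFP (adjusted p = 0.258). It lies 1.6 kb from Chrnb4 and 2.3 kb from Chrna5 on chromosome 9, and of these 3 neighbours only Chrnb4 was called. The muscle-type genes Chrna1 and Chrnb1 had log2 fold changes of -0.78 and -0.05, with adjusted p of 0.320 and 0.885. Chrna5 was the member nearest to the count rule, with 10 counts in 12 libraries.

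**Figure D2:**
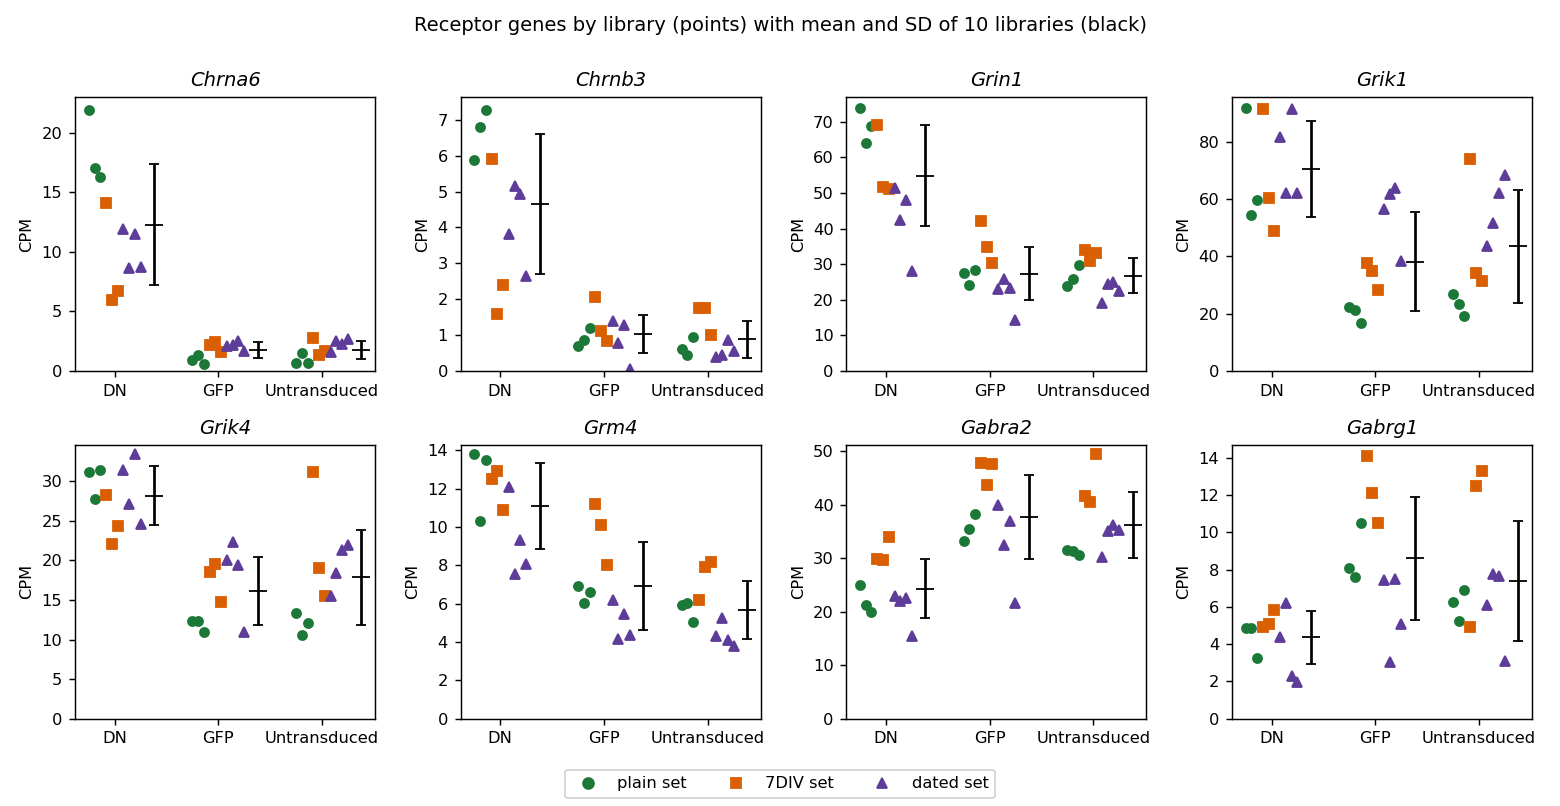
CPM (vertical axis) of Chrna6, Chrnb3, Grin1, Grik1, Grik4, Grm4, Gabra2 and Gabrg1 in every library, by condition, with symbols for the culture sets. Black marks are the mean and SD of 10 libraries. Only Chrna6 shows no overlap of DN and GFP, while Gabra2 and Gabrg1 lie lower in DN.

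NMDA receptors need the subunit encoded by Grin1, GluN1, in every assembly. Grin1 (ENSMUSG00000026959; chromosome 2, 25291181 to 25319187, minus strand) ran from 28.1 to 73.9 CPM in DN (median 51.5), from 14.3 to 42.1 CPM in GFP (median 26.6) and from 19.0 to 33.9 CPM in Untransduced cultures (median 25.4). The lowest DN value, in replicate 10, was the only DN library inside the GFP range, and the lowest GFP value came from the same replicate. DN exceeded GFP in 10 of 10 replicates. The rise was 2.01-fold (log2 fold change 1.01, SE 0.10), with the smallest adjusted p of the 44 genes, 7.61e-08. An antisense gene, Grin1os, shares 1307 of the 9700 exon bases but held 119 counts over all libraries, against 32179 for Grin1.

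The glutamate-binding GluN2 genes did not pass. Grin2d had 3.07 CPM ± 0.825 in DN and 2.29 ± 0.736 in GFP (log2 fold change 0.44, adjusted p = 0.0956, and 0.0210 without Untransduced replicate 4), and was higher in DN in 10 of 10 replicates. Part of its exons overlaps Gm45441, itself higher in DN (log2 fold change 1.81, adjusted p = 0.0192) at 290 counts over all libraries against 2394 for Grin2d. Grin2a and Grin2c had log2 fold changes of 0.14 and 0.10, with adjusted p of 0.852 and 0.878. Grin3a, whose subunit binds glycine and lowers the calcium permeability of the channel, had 18.5 CPM ± 3.52 in DN and 21.0 ± 8.45 in GFP (adjusted p = 0.699). Grin2b and Grin3b were under the count rule.

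Of the 5 kainate receptor genes, 2 rose. Grik1 encodes GluK1, the channel subunit long associated with unmyelinated sensory neurons. It ran from 48.7 to 91.7 CPM in DN (median 62.1), from 16.6 to 63.9 CPM in GFP (median 36.3) and from 19.2 to 74.0 CPM in Untransduced cultures (median 38.9). The highest GFP libraries were all of the dated set, and the ranges overlapped, but DN was above GFP in 10 of 10 replicates. The rise was 1.99-fold (log2 fold change 0.99, SE 0.17, adjusted p = 0.000235).

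Grik4 encodes GluK4, a high-affinity subunit that needs a partner such as GluK1 to form a channel. Its level was 22.1 to 33.5 CPM in DN (median 28.1), 11.0 to 22.3 CPM in GFP (median 16.7) and 10.6 to 31.2 CPM in Untransduced cultures (median 17.0). In 9 of 10 DN libraries it lay above the highest GFP library, and the highest Untransduced value belonged to replicate 4. The rise was 1.80-fold (log2 fold change 0.85, SE 0.14, adjusted p = 8.20e-05). Grik5, for the other high-affinity subunit, had 55.4 CPM ± 3.24 in DN and 53.0 ± 7.09 in GFP (log2 fold change 0.07, adjusted p = 0.633). Grik3 had 158.4 CPM ± 16.2 in DN and 175.7 ± 21.8 in GFP (log2 fold change -0.14, adjusted p = 0.220). Grik2 had a log2 fold change of -0.20 (adjusted p = 0.492).

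Among AMPA receptors, which carry fast excitation, only Gria1 was called. Gria1 ran from 3.45 to 9.33 CPM in DN (median 5.34), from 0.621 to 5.84 CPM in GFP (median 2.75) and from 1.45 to 5.31 CPM in Untransduced cultures (median 2.41). The groups overlapped, with DN higher in 9 of 10 replicates, and the rise was 1.92-fold (log2 fold change 0.94, SE 0.20, adjusted p = 0.00166). Gria3, the most abundant AMPA gene, had 119.2 CPM ± 15.1 in DN and 131.4 ± 14.8 in GFP. It was lower in DN in 8 of 10 replicates but did not pass (log2 fold change -0.14, adjusted p = 0.0973, and 0.0181 without Untransduced replicate 4). Gria2, whose edited subunit blocks calcium entry, and Gria4 had log2 fold changes of 0.35 and 0.09 (adjusted p = 0.273 and 0.515). Grid1, a delta gene whose product binds cerebellins at synapses, had a log2 fold change of -0.08 (adjusted p = 0.553).

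The 3 metabotropic receptors that rose, Grm4, Grm7 and Grm8, are all of group III, which couples to inhibitory G proteins and lowers transmitter release from terminals. Grm4 (ENSMUSG00000063239; chromosome 17, 27422387 to 27521403, minus strand) ran from 7.56 to 13.8 CPM in DN (median 11.5), from 4.16 to 11.2 CPM in GFP (median 6.41) and from 3.79 to 8.19 CPM in Untransduced cultures (median 5.60). DN was above GFP and above Untransduced in 10 of 10 replicates each, and 5 DN libraries exceeded the highest GFP library. The rise was 1.65-fold (log2 fold change 0.72, SE 0.11, adjusted p = 2.88e-05).

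Grm8 had 4.65 CPM ± 0.859 in DN and 2.60 ± 0.789 in GFP and was higher in DN in 10 of 10 replicates (1.82-fold, adjusted p = 0.00652). The Untransduced mean of Grm8, 3.66 CPM ± 3.55, held a value of 13.5 CPM in replicate 4, against 4.22 CPM in the next library. Grm7 had 28.8 CPM ± 4.48 in DN and 19.7 ± 5.38 in GFP and was higher in 9 of 10 replicates (1.50-fold, adjusted p = 0.00734). Grm5, of the excitatory group I, averaged 0.832 CPM ± 0.370 in DN and 0.530 ± 0.190 in GFP (log2 fold change 0.57, adjusted p = 0.388). Grm2, Grm3 and Grm6 were among the metabotropic genes under the count rule.

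GABA-A receptors had genes called in both directions. Gabra2 encodes alpha2, and Gabrg1 a gamma subunit. Both fell, and they are neighbours on chromosome 5, on the minus strand with 115.0 kb between them. Gabra2 (ENSMUSG00000000560; 70957597 to 71095849) ran from 15.4 to 34.0 CPM in DN (median 22.8), from 21.7 to 47.8 CPM in GFP (median 37.6) and from 30.2 to 49.5 CPM in Untransduced cultures (median 35.1). DN was lower than GFP in 10 of 10 replicates although the ranges overlapped, and the fall was 1.56-fold (log2 fold change -0.64, SE 0.07, adjusted p = 1.12e-06). Gabrg1 (ENSMUSG00000001260; 70751047 to 70842617) ran from 1.99 to 6.18 CPM in DN (median 4.88), from 3.06 to 14.1 CPM in GFP (median 7.84) and from 3.09 to 13.3 CPM in Untransduced cultures (median 6.57). DN was lower than GFP in 9 of 10 replicates, and the fall was 1.96-fold (log2 fold change -0.97, SE 0.20, adjusted p = 0.00129).

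Gabrb1, the next gene along chromosome 5 among those past the count rule, starts 562.3 kb beyond Gabra2 on the opposite strand and rose. Gabra4, which was under the count rule, lies between them and shares 46 exon bases with Gabrb1. Gabrb1 averaged 3.15 CPM ± 1.11 in DN and 1.91 ± 1.19 in GFP, higher in 9 of 10 replicates (1.81-fold, adjusted p = 0.00887). Gabra3 had 1.62 CPM ± 0.590 in DN and 0.714 ± 0.287 in GFP, higher in 10 of 10 replicates (2.36-fold, adjusted p = 0.0142, and 0.0542 without replicate 1).

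Gabra5, for an extrasynaptic alpha subunit, had 3.21 CPM ± 2.03 in DN and 2.83 ± 2.20 in GFP (log2 fold change 0.32, adjusted p = 0.299). By culture set its log2 fold change was -0.36 in plain, 0.03 in 7DIV and 1.06 in dated cultures, called only in dated ones (adjusted p = 0.00429). Gabrb2, Gabre and Gabrg3 did not pass either (log2 fold changes of 0.37, 0.05 and -0.56, adjusted p = 0.533, 0.947 and 0.339). The 8 GABA-A genes under the count rule were Gabra4, Gabra6, Gabrd, Gabrp, Gabrq and the 3 rho genes Gabrr1, Gabrr2 and Gabrr3.

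Glrb, the glycine receptor beta subunit that binds the scaffold gephyrin, had 37.8 CPM ± 4.95 in DN and 34.7 ± 3.75 in GFP (log2 fold change 0.12, adjusted p = 0.519). None of the 4 alpha subunit genes, Glra1 to Glra4, met the count rule. Htr3a, whose subunit forms serotonin-gated channels alone, and Htr3b, which needs it, had log2 fold changes of -0.10 and -0.20 (adjusted p = 0.820 and 0.794). Over the 24 genes under the count rule the highest count in any library was 24, and Gabra6 and Grm6 had no count in any library. Chrna2, Chrna9, Chrna10, Chrnd, Chrne and Chrng complete these 24 genes. A count of 0 in a library allows up to 0.0767 to 0.281 CPM by its depth (3 counts of its total, covering counting error only).

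**Figure D3:**
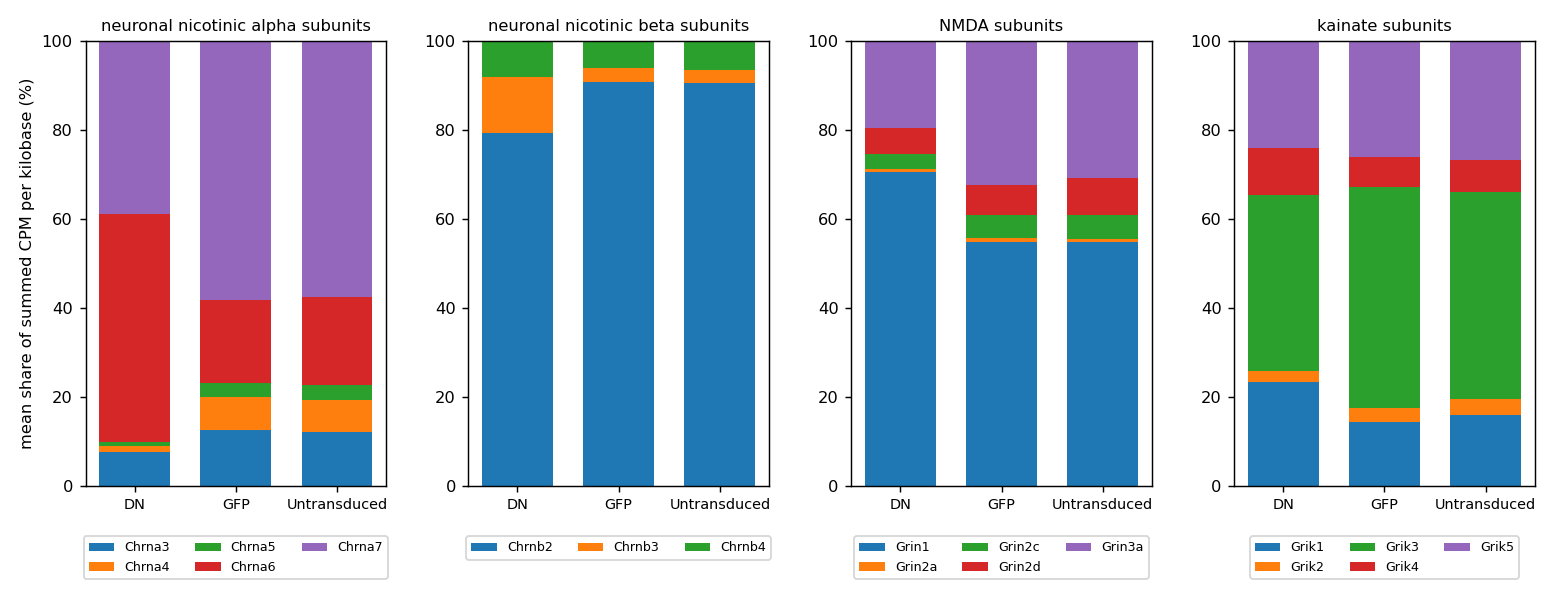
Mean share (%, vertical axis) of each subunit in the summed CPM per kilobase of its subunit family, by condition (10 libraries each), for neuronal nicotinic alpha, neuronal nicotinic beta, NMDA and kainate subunits. The Chrna6 share is 51.4% in DN, 18.6% in GFP and 19.8% in Untransduced cultures.

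Divided by exon length, the same counts give the makeup of a subunit family (no test was run on these shares, which rest on the counts already tested). Among 5 neuronal nicotinic alpha genes, Chrna6 made up 51.4% ± 13.2 of summed CPM per kilobase in DN and 18.6% ± 7.51 in GFP (SD, n = 10 each), with Chrna7 at 38.9% ± 12.1 in DN and 58.3% ± 8.75 in GFP. The summed alpha level was 7.98 CPM per kilobase ± 1.55 in DN and 3.59 ± 1.67 in GFP. Chrna7 held a smaller share in DN in 10 of 10 replicates although its own level was called higher. Among 3 neuronal beta genes, Chrnb3 made up 12.6% ± 5.10 in DN and 3.21% ± 1.35 in GFP, and Chrnb2 79.4% ± 6.58 in DN and 90.8% ± 4.65 in GFP. The summed beta level was 5.85 CPM per kilobase ± 0.984 in DN and 4.83 ± 1.31 in GFP.

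Kainate genes together had 44.6 CPM per kilobase ± 2.09 in DN and 39.5 ± 3.40 in GFP. The Grik1 share of that sum was 23.3% ± 4.79 in DN and 14.3% ± 6.11 in GFP, and the Grik3 share was 39.6% ± 4.61 in DN and 49.8% ± 6.13 in GFP. Grin1 took 70.5% ± 6.38 of NMDA transcripts per length in DN and 54.9% ± 4.98 in GFP, against 19.4% ± 3.65 in DN and 32.3% ± 6.46 in GFP for Grin3a. Of the metabotropic genes, Grm7 took 67.1% ± 3.92 in DN and 68.8% ± 8.98 in GFP, while their sum was 7.30 CPM per kilobase ± 1.07 in DN and 4.82 ± 0.883 in GFP.

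Ranked by mean level per length in GFP cultures, Grik3 came first with 19.6 CPM per kilobase, followed by Gria3 (13.3) and Grik5 (10.3). Further down stood Glrb (7.46 CPM per kilobase), Grik1 (5.67), Gabra2 (4.93), Gria4 (4.62), Chrnb2 (4.38) and Htr3a (3.66). The lowest was Grin2a at 0.0485 CPM per kilobase. Chrna6 ranked 26 and Chrnb3 37 of 44 in this order. Exon length here is the union over annotated transcripts, 15548 bases for Gria2, so ranks of genes with long untranslated exons are lowered.

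Promoters are shown for 4 called genes: the neighbours Gabrg1 and Gabra2, which both fell, Grin1, which had the smallest adjusted p, and Grm8, the called gene with a match to the AP-1 motif. RefSeq promoters (GRCm38.p6, 250 bases before to 50 bases after the start) were matched for 29 of the 44 genes, 37 promoters in all. Each is printed 5′ to 3′ on the gene's strand, with the 50 bases from the start in capitals, and in Grm8 also the motif match TGATTCA, which begins 244 bases before the start. Their positions are chr5:70842568-70842867 for Gabrg1, chr5:71095800-71096099 for Gabra2, chr2:25319138-25319437 for Grin1 and chr6:28135097-28135396 for Grm8, the last being 1 of 3 promoters of that gene, and all are on the minus strand.
Gabrg1: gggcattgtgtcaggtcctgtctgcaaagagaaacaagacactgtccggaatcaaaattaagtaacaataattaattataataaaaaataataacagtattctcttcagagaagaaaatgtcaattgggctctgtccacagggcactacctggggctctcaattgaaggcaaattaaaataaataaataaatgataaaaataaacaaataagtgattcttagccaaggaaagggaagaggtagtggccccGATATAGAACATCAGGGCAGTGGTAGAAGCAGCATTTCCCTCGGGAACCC
Gabra2: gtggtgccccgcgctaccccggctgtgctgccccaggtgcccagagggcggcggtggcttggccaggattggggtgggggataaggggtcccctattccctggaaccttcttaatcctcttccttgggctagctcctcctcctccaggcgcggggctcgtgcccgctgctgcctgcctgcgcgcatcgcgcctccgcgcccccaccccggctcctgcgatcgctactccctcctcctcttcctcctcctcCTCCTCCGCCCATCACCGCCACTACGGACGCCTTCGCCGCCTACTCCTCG
Grin1: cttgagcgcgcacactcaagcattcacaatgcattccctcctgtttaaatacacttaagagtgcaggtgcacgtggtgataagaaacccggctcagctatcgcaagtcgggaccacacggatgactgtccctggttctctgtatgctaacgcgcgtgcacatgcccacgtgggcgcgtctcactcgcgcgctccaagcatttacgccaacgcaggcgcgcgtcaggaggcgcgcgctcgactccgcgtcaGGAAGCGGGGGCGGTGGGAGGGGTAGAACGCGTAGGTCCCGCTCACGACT
Grm8: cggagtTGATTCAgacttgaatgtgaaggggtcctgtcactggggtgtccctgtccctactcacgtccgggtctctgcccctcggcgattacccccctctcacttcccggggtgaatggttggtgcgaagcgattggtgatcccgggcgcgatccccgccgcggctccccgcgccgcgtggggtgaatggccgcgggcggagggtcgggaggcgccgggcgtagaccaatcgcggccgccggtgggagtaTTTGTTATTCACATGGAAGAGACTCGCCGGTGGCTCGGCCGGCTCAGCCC

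The Gabrg1 window is AT-rich, with 38.3% G and C, against 70.0% in Gabra2, 60.7% in Grin1 and 67.0% in Grm8, and a median of 52.7% over 32851 promoters. The AP-1 motif TGANTCA, which reads the same on both strands, was found in 2 of the 37 promoters (5.41%), those of Grm8 and Chrna1, and in 2565 of 32851 promoters (7.81%). The cyclic AMP response element TGACGTCA, likewise the same on both strands, was found in 0 of 37 and in 1.79% of all promoters. These matches describe the printed window and do not show binding.

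Against Untransduced cultures, DN showed 15 called receptor genes (34.1%, beside 13.2% of all genes tested), 12 higher and 3 lower (beside 8.94% higher and 4.25% lower of all genes tested). This comparison uses the same DN libraries as the comparison with GFP, so the 2 are not independent. Of the 17 genes called against GFP, 13 were called here as well. Chrna6 was 7.06-fold higher (adjusted p = 3.17e-07) and Grin1 2.01-fold higher (adjusted p = 9.52e-08), while Gabra2 was 1.51-fold lower (adjusted p = 3.70e-06) and Chrna4 2.32-fold lower (adjusted p = 0.00500). Grm7, Grm8 and Chrnb4 were not called here (adjusted p = 0.129, 0.0609 and 0.0923), but without Untransduced replicate 4 both Grm7 (log2 fold change 0.46, adjusted p = 0.0143) and Grm8 (0.86, adjusted p = 8.16e-05) were called higher. Gabra5 (1.54-fold, adjusted p = 0.0187) and Grm5 (2.50-fold, adjusted p = 0.0194) were called against Untransduced cultures and not against GFP. Without that library 20 of the 44 genes were called here, beside 2979 of all 18142 genes tested (2382 of 18063 with it). Among the 20 were also Gria4 (log2 fold change 0.21, adjusted p = 0.0103, against 0.14 and 0.228 with it) and Chrnb1 (-0.35, adjusted p = 0.0474, against -0.32 and 0.0890 with it).

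GFP against Untransduced cultures, which asks what transduction does by itself, gave 0 called receptor genes of 44 and 0 of all genes tested (0%), with edgeR and with DESeq2. At an unadjusted p under 0.05, edgeR counted 2 of the 44 genes and 373 of all genes. The smallest adjusted p of the 44 genes was 0.998, and the largest absolute log2 fold change was 0.75, for Grm5 at 0.530 CPM ± 0.190 in GFP and 0.351 ± 0.224 in Untransduced cultures.

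Within the culture sets the DN effect kept its direction in all 3 sets for 16 of the 17 called genes. The sets make up the fit that chose these genes, so a shared direction was likely from the start and is no separate support. The share among all called genes was not computed. Tested within plain cultures (3 libraries per condition), 10 genes were called, 9 higher and 1 lower, beside 8.00% of all genes tested, with 5.61% higher and 2.39% lower. Within 7DIV cultures (3 per condition), 4 were called, 3 higher and 1 lower, beside 2.61% of all genes tested, with 1.89% higher and 0.720% lower. Within dated cultures (4 per condition), 11 were called, 9 higher and 2 lower, beside 3.16% of all genes tested, with 2.05% higher and 1.11% lower. Gabra5 was among the 9 higher, though it was not called over all sets. Chrna6, Grin1 and Gabra2 were called in each set. For Chrna6 the log2 fold change was 4.30 in plain, 2.00 in 7DIV and 2.24 in dated cultures, for Grin1 it was 1.37 in plain, 0.68 in 7DIV and 0.98 in dated cultures, and for Gabra2 it was -0.69, -0.57 and -0.65 in the same order. The exception was Chrna7, with log2 fold changes of 1.04 in plain, -0.20 in 7DIV and 0.89 in dated cultures.

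**Figure D4:**
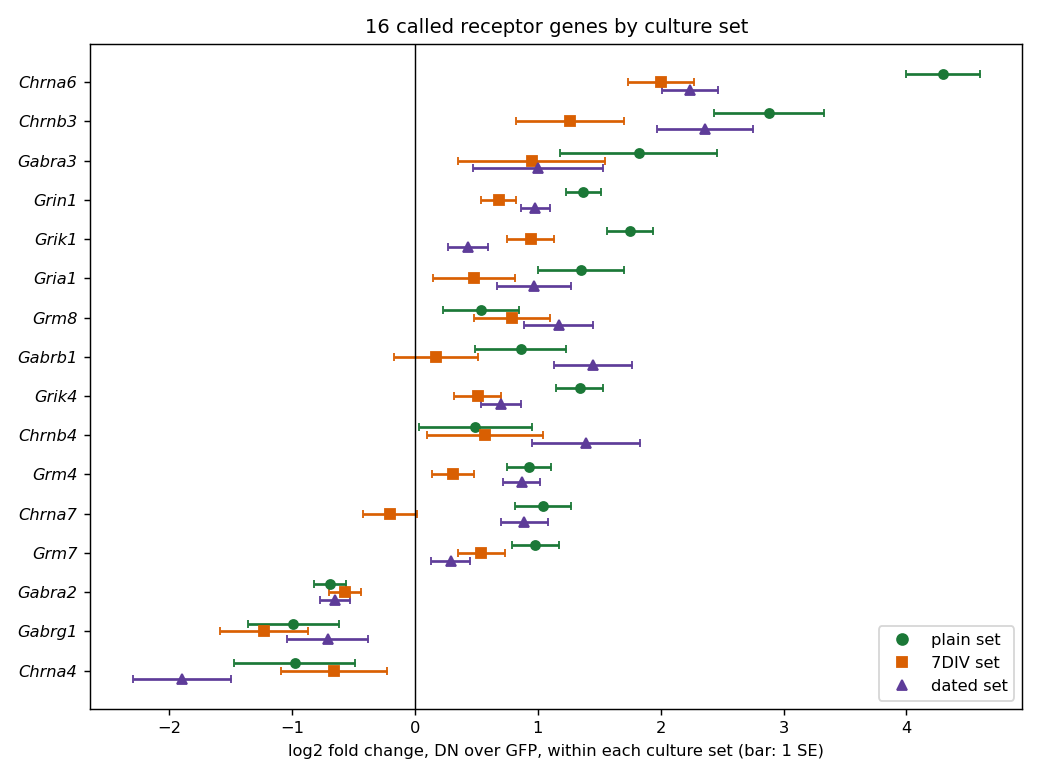
Log2 fold change of DN over GFP within each culture set (horizontal axis, bars 1 SE) for 16 of the 17 called genes. For Chrna6 (4.30) and Grik1 (1.75) the plain set lies furthest right, and Chrna7 lies left of 0 in the 7DIV set (-0.20).

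The size of the DN effect differed between sets for 2 of the 44 genes, Chrna6 (adjusted p = 0.0122) and Grik1 (adjusted p = 0.0400), beside 0.365% of all genes tested (66 genes). Chrna6 in plain cultures had 21.9, 17.0 and 16.3 CPM in DN, against 0.929, 1.33 and 0.619 CPM in GFP. In 7DIV cultures it had 14.1, 6.00 and 6.69 CPM in DN, against 2.18, 2.42 and 1.64 CPM in GFP. In dated cultures it had 11.9, 8.61, 11.5 and 8.74 CPM in DN, against 2.14, 2.20, 2.55 and 1.72 CPM in GFP. All 3 plain DN libraries were above every other DN library, and all 3 plain GFP libraries were below every other GFP library.

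Grik1 in plain cultures had 91.7, 54.4 and 59.6 CPM in DN, against 22.5, 21.2 and 16.6 CPM in GFP. In dated cultures it had 81.6, 62.0, 91.2 and 62.2 CPM in DN, against 56.4, 61.7, 63.9 and 38.2 CPM in GFP. The DN ranges of these 2 sets overlapped, while all 4 dated GFP libraries lay above the 3 plain GFP libraries. In 7DIV cultures Grik1 had 91.5, 60.4 and 48.7 CPM in DN, against 37.6, 35.0 and 28.3 CPM in GFP. Both differences were lost in the fit without the replicate block (adjusted p = 0.0635 for Chrna6 and 0.314 for Grik1). Without Untransduced replicate 4 there were 4 such genes, with Chrna7 (adjusted p = 0.00819) and Gabra5 (adjusted p = 0.0233) added. The background rose too in that fit, to 544 of all 18142 genes tested. The summed neuron markers moved with the sets too, at 4424, 5065 and 4144 CPM in DN for plain, 7DIV and dated cultures, against 3153, 4523 and 3913 CPM in GFP, and their part in these differences was not tested.

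GFP cultures by themselves varied between sets, which may differ in more than time in culture. In 7DIV against plain cultures 14 of the 44 genes were called, 13 higher and 1 lower (19.7% of all genes tested were called, 9.15% higher and 10.6% lower). In dated against 7DIV cultures 22 were called, 2 higher and 20 lower (30.6% of all genes tested, 17.6% higher and 12.9% lower). In dated against plain cultures 5 were called, 3 higher and 2 lower, a share of 11.4% that lies near the background (14.3% of all genes tested, 8.54% higher and 5.80% lower). The 3 comparisons share libraries. In GFP cultures the summed neuron markers averaged 3913 CPM ± 933.0 in dated, 4523 ± 133.1 in 7DIV and 3153 ± 156.2 in plain cultures, and their part in these results was not tested.

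Gabra5 had 1.10, 0.771, 1.11 and 1.48 CPM in dated GFP cultures, 5.49, 7.12 and 4.90 CPM in 7DIV and 1.79, 2.19 and 2.36 CPM in plain ones. The 3 sets did not overlap, with 7DIV highest and dated lowest (dated against 7DIV 5.23-fold lower, adjusted p = 6.46e-08, and 7DIV against plain 2.76-fold higher, adjusted p = 0.000204). Chrna7 had 10.5, 6.75, 5.04 and 8.62 CPM in dated GFP cultures, 19.8, 17.1 and 14.3 CPM in 7DIV and 5.06, 4.41 and 5.92 CPM in plain ones. Its 7DIV libraries were the highest, 3.33-fold above plain (adjusted p = 3.31e-05), with dated 2.21-fold below 7DIV (adjusted p = 0.000577).

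Both serotonin type 3 genes were highest in 7DIV cultures. Htr3a averaged 4.68 CPM ± 1.31 in dated, 13.6 ± 2.38 in 7DIV and 5.54 ± 2.05 in plain GFP cultures (SD, n = 4, 3 and 3). Htr3b averaged 1.24 CPM ± 0.210 in dated, 3.66 ± 1.26 in 7DIV and 0.774 ± 0.540 in plain GFP cultures. Both were called in 7DIV against plain (adjusted p = 0.0138 and 0.00272) and in dated against 7DIV (adjusted p = 0.00116 and 0.0100). Gria2 (2.88-fold, adjusted p = 0.00170), Grin3a (2.33-fold, adjusted p = 0.000322) and Chrnb2 (1.65-fold, adjusted p = 0.00239) were likewise higher in 7DIV than in plain cultures. Grm4 (1.93-fold) and Gabrb1 (3.35-fold) were lower in dated than in 7DIV cultures (adjusted p = 0.000126 and 0.000335).

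A few genes followed another order. Grid1 was 1.57-fold higher in dated than in 7DIV cultures (adjusted p = 6.67e-05) and 1.39-fold lower in 7DIV than in plain cultures (adjusted p = 0.00522). Grik1 averaged 55.0 CPM ± 11.7 in dated, 33.6 ± 4.79 in 7DIV and 20.1 ± 3.14 in plain GFP cultures, with dated 2.73-fold above plain (adjusted p = 0.000464). Chrna6 (2.23-fold, adjusted p = 0.0158) and Grik4 (1.53-fold, adjusted p = 0.0380) were also higher in dated than in plain GFP cultures, and Grik3 was lower (1.25-fold, adjusted p = 0.0414). Chrna6, Grik1 and Grik4 are also genes that rose in DN, and these GFP libraries enter both comparisons.

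**Figure D5:**
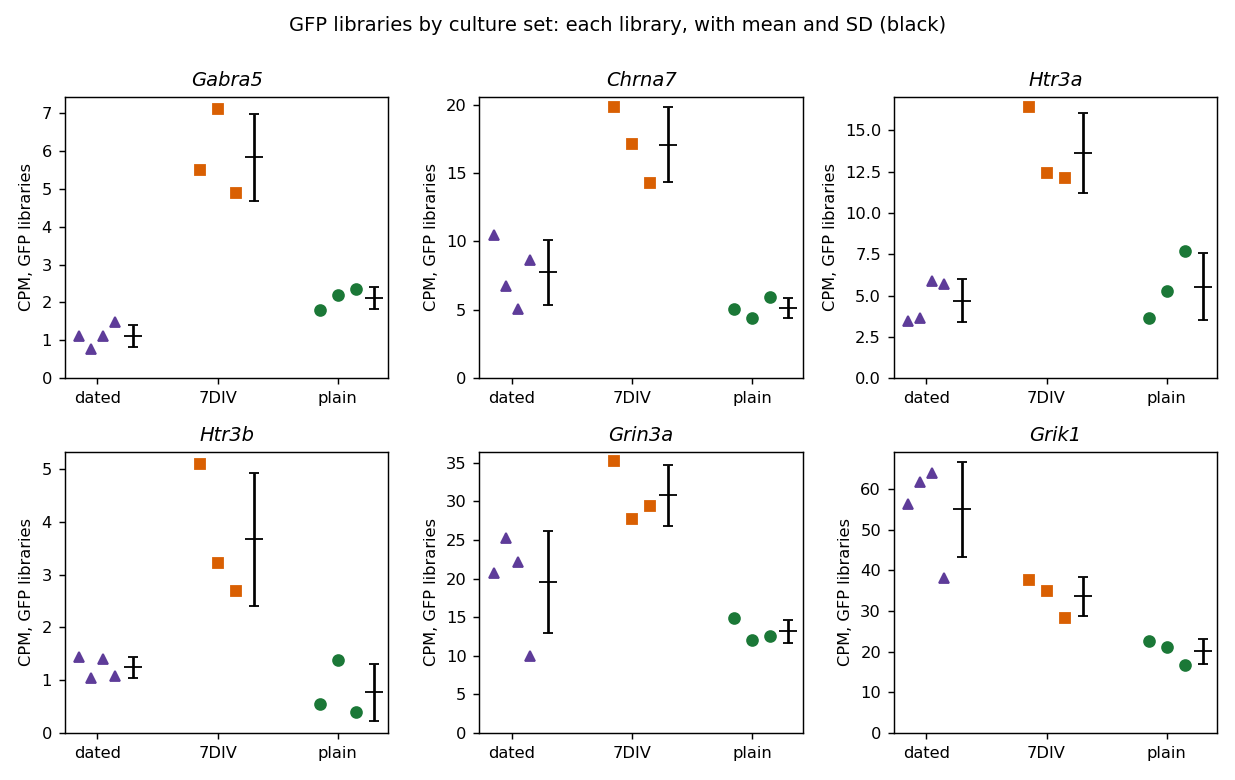
CPM (vertical axis) of Gabra5, Chrna7, Htr3a, Htr3b, Grin3a and Grik1 in GFP libraries by culture set (dated, 7DIV, plain). Points are libraries and black marks the mean and SD. Gabra5, Chrna7, Htr3a and Htr3b are highest in 7DIV libraries, and Grik1 is highest in dated ones.

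The genes around these receptors were described from lists of known partners, for DN against GFP. Of all genes tested 11.4% were called, 7.98% higher and 3.39% lower. Of 21 genes for GABA and glycine receptor scaffolds and metabotropic GABA receptors, 7 rose and 0 fell (33.3% called). Their median log2 fold change was 0.10. Lhfpl4, which anchors GABA-A receptors at synapses, had 135.7 CPM ± 27.2 in DN and 89.5 ± 29.4 in GFP (1.56-fold, adjusted p = 0.000109). Nlgn3, a neuroligin, rose 1.54-fold, and Gabbr1, for the GABA-binding subunit of the GABA-B receptor, rose 1.32-fold with 213.1 CPM ± 31.0 in DN and 161.8 ± 25.7 in GFP. Kctd16, an auxiliary subunit of that receptor, rose 1.72-fold.

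Of 15 tested genes for GABA and glycine synthesis, transport and the chloride gradient, 3 rose and 1 fell (26.7%, beside 11.4% of all genes tested). Their median log2 fold change was -0.07. Slc12a2, the chloride importer, had 119.5 CPM ± 11.0 in DN and 96.1 ± 10.3 in GFP (1.25-fold, adjusted p = 6.39e-05). Shmt2, a mitochondrial enzyme that makes glycine from serine, rose 1.33-fold and Aldh5a1, which completes GABA breakdown, 1.34-fold. Slc6a12, a betaine and GABA transporter, fell 2.77-fold at 0.319 CPM ± 0.298 in DN and 0.908 ± 0.680 in GFP. The GABA-synthesising enzymes Gad1 and Gad2 were among the 5 listed genes too low to test, with Slc6a13, Slc32a1 and Slc6a5.

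Of 31 glutamate receptor auxiliary and scaffold genes, 5 rose and 3 fell (25.8%, beside 11.4% of all genes tested). Their median log2 fold change was -0.07. The kainate receptor auxiliary genes Neto2 and Neto1 both fell. Neto2 had 46.5 CPM ± 5.77 in DN and 56.6 ± 6.78 in GFP (1.22-fold, adjusted p = 0.000460), and Neto1 had 1.93 ± 0.728 in DN and 3.10 ± 0.815 in GFP (1.65-fold, adjusted p = 0.00234). Grip2, an AMPA receptor scaffold, fell 1.90-fold, and Shisa6, an AMPA receptor auxiliary subunit, rose 1.50-fold. Of 18 genes for glutamate synthesis, transport and clearance, 3 rose and 2 fell (27.8%, beside 11.4% of all genes tested). Their median log2 fold change was 0.00. Slc17a6, which loads glutamate into vesicles, had 68.0 CPM ± 15.1 in DN and 125.5 ± 28.1 in GFP, lower in 10 of 10 replicates (adjusted p = 7.90e-06). Glul, the glutamine synthetase of glia and also on the list of satellite glia markers, fell 1.33-fold, while the transporters Slc1a6 and Slc38a2 rose 1.82-fold and 1.22-fold.

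Of 19 tested genes for nicotinic receptor assembly and acetylcholine turnover, 3 rose and 3 fell (31.6%, beside 11.4% of all genes tested). Their median log2 fold change was 0.01. Ly6h, a membrane-anchored protein that limits nicotinic receptor surface expression, had 6.51 CPM ± 2.34 in DN and 1.49 ± 1.40 in GFP, higher in 10 of 10 replicates (5.60-fold, adjusted p = 2.12e-07). Its relatives moved in both directions. Lynx1, a modulator of nicotinic receptors, fell 1.33-fold with 108.2 CPM ± 17.2 in DN and 142.9 ± 15.2 in GFP, Ly6e fell 1.76-fold and Lypd6b rose 1.99-fold. Chat and Slc18a3, for acetylcholine synthesis and vesicle loading, were among the 4 listed genes too low to test.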

How the data were processed

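RNA was extracted with the RNeasy Micro kit and libraries were made with a TruSeq kit, per the labels' protocols. The deposited gene table holds raw read counts per Ensembl gene, with no normalization by the authors found in it. Tools in the submitters' processing notes are bcl2fastq 2.17, STAR and HTSeq, and the build is GRCm38 (mm10). The sources used here give neither settings nor strandedness. Symbols and exon lengths came from GENCODE M21. A deposited table of repeat intervals was not used here.

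Tests used edgeR 4.0.16 under R 4.3.3 (filterByExpr by condition, TMM factors, robust quasi-likelihood F test, two-sided), in 1 model of all 30 libraries with condition and replicate number as a block. The design text, not the labels of single libraries, ties same-numbered libraries to 1 mouse. As a check, deviations of 8 of 30 same-number pairs correlated above 0.1 (median r 0.063, against -0.039 for differently numbered pairs of a set). Deviations were taken from the mean of each condition in each set and so cancel out there. A higher correlation of same-number pairs thus lowers that of the others, and the second median is no separate reference. Differences between sets were tested with the 2 interaction coefficients, and GFP sets in a model of 9 groups. The 3 models share the filter. The block model and the interaction model were checked on simulated data, and the model of 9 groups was not. SE is the absolute log2 fold change over the root of its F statistic. CPM are on TMM-scaled totals, 1e+06 per library, and CPM per kilobase divides them by 1000 bases of exon.

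Alternatives were median-ratio and upper-quartile factors, no filter, DESeq2 1.42.0, no block, DN and GFP libraries only, and leaving out replicates or Untransduced replicate 4. Every called member, the most abundant 5 per family and up to 6 more per other comparison were named, with up to 4 genes per partner list by smallest p. The values of some genes are not reported here by name, though they are in the counts over all members. The members and lists were chosen with earlier results of these data known.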

Additional observations from a re-analysis of the deposited data

Results flagged for a closer look

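A library stood apart from the other 9 of its condition in 12 of 120 checks of a receptor gene in a condition, by the gap to its neighbour over the range. Chance flags about 5% of such checks. Untransduced replicate 4 accounted for 8 of them. It was the highest of its condition for Gria2 (32.0 CPM, next 10.2), Gria4 (42.4, next 32.2), Grin2d (7.37, next 4.13), Grik2 (41.8, next 20.5), Grik5 (89.3, next 59.0), Grm7 (51.9, next 27.5) and Grm8 (13.5, next 4.22). It was the lowest for Glrb (16.6 CPM, next 30.7). This library also had the lowest total count and the highest Malat1, and the part of these in its receptor values was not tested.

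GFP replicate 10 was the lowest of its condition for Glrb (25.9 CPM, next 32.6). DN replicate 4 was the highest for Gria1 (9.33 CPM, next 6.31), DN replicate 10 the highest for Chrnb1 (7.76, next 4.98) and Untransduced replicate 6 the highest for Chrnb4 (2.35, next 1.44).

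The DN effect against GFP differed between culture sets for Chrna6 (adjusted p = 0.0122) and Grik1 (adjusted p = 0.0400) by edgeR's quasi-likelihood test.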

How the results depend on the processing

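For DN against GFP, 17 receptor genes were called in the reported fit, 15 to 21 under other scaling, filter, tool, block and library choices (16 without the replicate block), and 13 to 18 when 1 replicate was left out. For DN against Untransduced the count was 15, 14 to 21 under those choices (16 without the replicate block) and 12 to 22 without 1 replicate. The calls among all genes tested moved with these counts. For DN against GFP they were 2054 of 18063 in the reported fit. They were 1541 of 33717 at 15 receptor genes (no filter) and 2980 of 17394 at 21 (DN and GFP only). Without replicate 1 (13 receptor genes) they were 1441 of 18137, and without replicate 4 (18) 3039 of 17994. For DN against Untransduced they were 2382 of 18063 in the reported fit. Without replicate 7 (12) they were 1764 of 18075, and without replicate 10 (22) 2971 of 18132. GFP against Untransduced gave 0 throughout. Of the 17 called genes, 13 kept their call in all 10 fits without a replicate. Chrna7 lost it with no filter (adjusted p = 0.0780) and Chrnb4 with no filter (0.0558) and without the replicate block (0.0688). Without Untransduced replicate 4 the background itself rose, with 3239 genes called for DN against GFP, and 20 receptor genes.

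The count of receptor genes whose DN effect differed between sets was 2 in the reported fit, 7 with no filter, 0 with no replicate block and 4 without Untransduced replicate 4. The background moved as well. In the same order, 66 of 18063, 506 of 33717, 8 of 18063 and 544 of 18142 of all genes tested were called. GFP dated against plain cultures gave 5, but 3 with no filter and 12 without Untransduced replicate 4. Beside these stood 2589 of 18063, 1738 of 33717 and 4425 of 18142 of all genes tested. The causes were not tested. The other set comparisons of GFP cultures stayed within 1.5 times of their counts.

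Within a set the sign of the log2 fold change was opposite to the pooled one in 7DIV cultures for Chrna3 (-0.04), Chrna7 (-0.20), Gabre (-0.28), Gria2 (-0.03), Grik5 (-0.10) and Grin2a (-0.17). In plain cultures it was opposite for Gabra5 (-0.36), Gria4 (-0.03), Grin2a (-0.52), Grin2c (-0.08), Grin3a (0.31), Htr3a (0.01) and Htr3b (0.27). In dated cultures it was opposite for Chrnb1 (0.04), Chrnb2 (-0.01), Gabre (-0.06), Grid1 (0.03) and Htr3a (0.03). Fits without 1 replicate were followed for the called genes and the most abundant 5 per family. There the sign also turned for Chrnb1 without replicate 9 (0.00) and for Grin2c without replicate 5 (-0.01, with a highest value of 0.19 without replicate 2). Of these genes, Chrna7 alone was called over all sets. Median-ratio and upper-quartile factors moved the median log2 fold change of all genes from -0.001 to -0.022 and -0.035. Members with few counts, such as Chrna5, Chrna1 and Gabrg3, are limited by depth.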
